A study of Mus musculus with 34 samples.

Results

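The genes described here are 43 mouse interferon-stimulated genes and their close partners: transcription factors of the interferon response, RNA sensors, antiviral effectors, ADP-ribosylation and ubiquitin genes, and antigen-presentation genes. They were chosen by name, with earlier results of these data known. Of the 43, 42 matched a row of the count files, which hold 37310 genes, and 39 had at least 10 reads over all libraries. Zbp1 (8 reads), Ifit3 (7 reads) and Oas1a (6 reads) were not measured, and Psmb9 was not analysed here. The RNA came from CAD cells, a mouse catecholaminergic neuronal line that the labels call neuroblastoma cells, grown in 10% fetal bovine serum and differentiated by removing it. PolyA RNA-seq of 28 libraries covered 13 groups in 3 experiments. The first held cells labelled mir-138 DKO beside wild-type (WT) cells, both in serum and 1 day after its removal, and each of its 4 groups had 2 libraries. In the second, WT cells were sampled with serum and after 4 days without it, with 3 libraries each. The genotype field of the 4-day libraries reads mir-138 DKO, but their titles, the design text and the protocol give WT, and they were analysed as WT. The third held only DKO-labelled cells, with 2 libraries in each of 7 groups: cells titled DKO_2 in serum with no transfection named, and cells given pUC19 plasmid DNA, a miR-138 mimic or a miR-137 mimic, sampled with serum and again when it had been absent for 2 days. Mimics were given at 3 nM with a lipid reagent, and serum was removed 48 h after transfection. What the 2 in DKO_2 marks is not stated, so transfection and that difference cannot be told apart. The labels do not say how many clones the DKO-labelled cells came from, nor whether replicates are separate cultures, so p-values reflect only how far these libraries spread, which may be technical.

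Type I interferons bind the receptor pair Ifnar1 and Ifnar2, and the kinases Jak1 and Tyk2 then activate Stat2, which acts with Irf9 in a complex that binds the interferon-stimulated response element in promoters. Cytosolic RNA is sensed by Ddx58 (RIG-I) and Ifih1 (MDA5), which signal through the mitochondrial adaptor Mavs to Irf3 and Irf7. The genes that the complex switches on block virus entry and replication, edit or sense viral RNA, and load peptides onto MHC class I. Many of them also have a basal level without added interferon.

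The mimics and a set of promoters are shown first, because the transfections delivered the former and a response element recurs in a part of the latter. The mimics carry the names of the following mature miRNAs, given as RefSeq lists them on GRCm38.p6, with the seed (bases 2 to 8) in capitals. The labels do not give the arm of either mimic, so the arm shown is the commonly studied one and may not be the one used. They lie at chr9:122682898-122682920 and chr3:118433901-118433923, both on the plus strand, and their seeds differ.
miR-138-5p: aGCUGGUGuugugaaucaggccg
miR-137-3p: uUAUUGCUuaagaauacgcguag

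Promoters were taken from RefSeq (GRCm38.p6) as the 250 bases before and 50 bases after each gene's start, and 34 of the 43 members had one. A core of the interferon-stimulated response element, GAAANNGAAA or its reverse complement TTTCNNTTTC, was in 14 of the 34 (41.2%), and in 1079 of 27025 genes (3.99%). The gamma-activated sequence TTCNNNGAA, which reads the same on both strands, was in 10 of the 34 (29.4%), and in 9.55% of all genes. By promoter window, since a gene can have several, the shares were 3.44% and 8.3%. The 14 genes were Stat2, Ddx58, Ifih1, Eif2ak2, Isg15, Ifit1, Ifit3, Ifitm2, Ifitm3, Oas1a, Rsad2, Bst2, Cxcl10 and B2m. A match is a description of the letters and not a site of binding. Stretches of 8 of these 14 promoters follow, 5′ to 3′ on the gene's own strand, with the matches in capitals. They were picked by name among genes with a match, with results known. Genes for which no such core was found, such as Tapbp, Psmb8, Ifi27, Irf1 and Parp14, carry results as well. In Isg15 3 matches overlap, and in Bst2 2 do. The matches of Ddx58, Eif2ak2 and Ifitm3 lie just after the start of the transcript, and the others before it. Ifitm3 has a second match closer to the start, of which only the end lies within the stretch, so it is not in capitals.
Stat2 (chr10:128270251-128270310, plus): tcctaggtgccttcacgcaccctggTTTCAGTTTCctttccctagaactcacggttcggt
Ddx58 (chr4:40239804-40239833, minus): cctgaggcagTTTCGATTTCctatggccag
Eif2ak2 (chr17:78882535-78882564, minus): agtccgccggGAAAACGAAAcagaagagaa
Isg15 (chr4:156200850-156200921, minus): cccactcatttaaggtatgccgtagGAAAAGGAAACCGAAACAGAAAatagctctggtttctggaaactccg
Ifitm3 (chr7:141010706-141010735, minus): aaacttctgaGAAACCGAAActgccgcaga
Bst2 (chr8:71537562-71537627, minus): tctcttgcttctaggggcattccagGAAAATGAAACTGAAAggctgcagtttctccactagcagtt
Cxcl10 (chr5:92349068-92349127, minus): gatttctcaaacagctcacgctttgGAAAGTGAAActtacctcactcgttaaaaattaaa
B2m (chr2:122147523-122147582, plus): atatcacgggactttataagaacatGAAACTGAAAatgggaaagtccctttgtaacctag

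Levels are CPM, reads per 1e6 assigned reads scaled within an experiment, and are not corrected for gene length, so levels of different genes were not compared. Assigned reads per library ran from 22359075 to 41505181 in the first experiment, from 19900317 to 28631969 in the second, and from 12740836 to 25582125 in the third, and a library's limit of 3 reads corresponds to 0.0735 to 0.236 CPM (counting error only). The miR-138 hairpin transcript Mir138-1 had 18 reads in each WT library in serum and 217 to 242 in the DKO-labelled ones of the first experiment, so its reads were not lost there. The labels do not state which stretch was deleted, so these reads cannot test the knockout. Scaled, Mir138-1 was at 5.93 to 10.9 CPM in DKO-labelled cells of the first experiment, 0.945 to 2.88 CPM in those of the third and 0.503 to 1.75 CPM in all WT libraries. Reads of polyA RNA do not measure the mature miRNA, and Mir138-2 had 0 reads in every library. The genotype is taken from the labels and was not tested here, so the cells are called DKO-labelled throughout. The 10 catecholaminergic neuronal markers had a summed level that was 1130 to 11300 CPM over all libraries. The 8 macrophage and microglia markers summed to 0.204 to 3.03 CPM, with Ptprc at 0 reads in all 28 libraries. In bulk RNA, fewer cells of a type and less RNA per cell cannot be told apart.

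The first comparison asked how these genes differed between DKO-labelled and WT cells. In serum, the tested antigen-presentation members and 6 effectors were higher in the DKO-labelled cells. Of 39 measured members, 32 passed the low-count filter, and a gene can pass through its higher group alone. Of these 32, 15 were higher, 1 was lower and 16 did not pass at a false discovery rate of 0.05, with a median log2 fold change of 0.41, against -0.008 over all genes. Over all 13630 genes 19.2% were higher and 21.5% lower. At 1 day 13 members were higher and 2 lower (median 0.49), against 21.9% of all genes higher and 23% lower, and 12 members were higher at both times, against 12.6% of all genes.

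In serum the 4 tested antigen-presentation members B2m, Tap1, Tapbp and Psmb8 were all higher. The MHC class I heavy chains, which are not members, were lower: H2-K1 had 44.9 and 35.6 CPM in WT against 30.4 and 26.3 CPM (-0.50 ± 0.11, adjusted p = 0.00256). H2-D1 had 33.2 and 30.5 CPM against 17.2 and 20.5 CPM (-0.76 ± 0.11, adjusted p = 8.21e-05). Both heavy chains were named after their values were seen. Psmb8, an inducible proteasome subunit, had 1.72 and 1.18 CPM in WT and 5.22 and 6.26 CPM in DKO-labelled cells in serum. At 1 day it had 1.59 and 2.37 CPM in WT against 10 and 11.4 CPM. All DKO-labelled libraries lay above all WT libraries, and the log2 fold change was 2.00 ± 0.28 (SE) with serum (adjusted p = 5.65e-05) and 2.42 ± 0.27 after 1 day without it (adjusted p = 5.03e-06). Tapbp (tapasin), which loads peptides onto MHC class I, had 29.6 and 28.6 CPM in WT and 73.4 and 71.5 CPM in DKO-labelled cells in serum, a log2 fold change of 1.32 ± 0.08 (adjusted p = 8.52e-09). B2m, the light chain of MHC class I, had 23.1 and 30.5 CPM in WT against 46.9 and 55.4 CPM, a log2 fold change of 0.93 ± 0.13 (adjusted p = 4.25e-05). It also differed at 1 day (0.66 ± 0.13, adjusted p = 0.000708). Tap1, a peptide transporter, had 3.09 and 2.51 CPM in WT and 5.24 and 5.27 CPM in DKO-labelled cells (0.91 ± 0.23, adjusted p = 0.00497). Its call in serum was lost without WT serum replicate 2 (0.76, adjusted p = 0.0538), and at 1 day it did not pass (0.49 ± 0.22, adjusted p = 0.0795).

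Among 13 tested effectors 6 were higher in serum and none lower. Ifitm3, a membrane protein that blocks virus entry, had 1.07 and 0.465 CPM in WT cells in serum and 10 and 11.6 CPM in DKO-labelled ones. At 1 day WT libraries held 0.133 and 0.259 CPM and DKO-labelled ones 11.5 and 10.7 CPM. The groups lay far apart at both times, by 3.85 ± 0.31 on the log2 scale with serum (adjusted p = 2.11e-07) and 5.76 ± 0.39 after 1 day without it (adjusted p = 2.66e-08). Its near neighbour Ifitm2 was already high in WT, at 79.9 and 73.2 CPM against 103 and 103 CPM in serum, and the difference was small (0.43 ± 0.08, adjusted p = 0.000483). Reads that map to more than 1 place were not counted, which can lower similar genes such as the Ifitm family unequally. Bst2 (tetherin), which holds budding virus at the cell surface, had 15.6 and 18.1 CPM in WT and 43.2 and 40.7 CPM in DKO-labelled cells in serum (1.32 ± 0.13, adjusted p = 1.36e-06). It had 14.3 and 14 CPM against 29.8 and 37 CPM at 1 day (1.24 ± 0.13, adjusted p = 2.68e-06), again with no overlap.

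Ifi27, an interferon-induced membrane protein, had 3.85 and 3.66 CPM in WT and 14.7 and 15.2 CPM in DKO-labelled cells in serum (1.99 ± 0.15, adjusted p = 9.2e-08). The gap was narrower at 1 day, with 13.5 and 13.8 CPM against 22.1 and 23.6 CPM (0.75 ± 0.14, adjusted p = 0.000418). Ifi35, which binds the effector Nmi, had 13 and 10.5 CPM in WT and 21 and 17 CPM in DKO-labelled cells in serum (0.70 ± 0.15, adjusted p = 0.00227). Isg20, an exonuclease, was near its limit in WT, with 0.381 and 0 CPM, against 0.956 and 2.03 CPM. Its call (3.02 ± 0.88, adjusted p = 0.0137) was lost without WT serum replicate 2 (1.93, adjusted p = 0.068). Cxcl10, a chemokine, had 0.974 and 1.37 CPM in WT at 1 day and 0.339 and 0.0633 CPM in DKO-labelled cells. This lower level passed (-2.54 ± 0.96, adjusted p = 0.0462) and did not pass under DESeq2 (adjusted p = 0.0656) or without any 1 of its 4 libraries (adjusted p up to 0.347).

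Of 5 tested RNA-sensing genes 2 were higher in serum and 2 at 1 day, the same pair. Mavs had 15.6 and 15.5 CPM in WT and 33.9 and 31.7 CPM in DKO-labelled cells in serum, and 22.1 and 20 CPM against 48.7 and 48.7 CPM at 1 day. The log2 fold changes were 1.08 ± 0.11 (adjusted p = 1.67e-06) and 1.21 ± 0.11 (adjusted p = 3.6e-07), with no overlap. Ddx58 had 4.57 and 4.12 CPM in WT and 10.4 and 7.87 CPM in DKO-labelled cells in serum (1.08 ± 0.18, adjusted p = 0.000305). At 1 day it had 11.5 and 11.3 CPM against 18.3 and 20.8 CPM (0.78 ± 0.17, adjusted p = 0.00173). Eif2ak2 (PKR), a kinase that double-stranded RNA activates, had overlapping levels in serum, 29.7 and 30.1 CPM against 26.9 and 34 CPM (0.02 ± 0.11, adjusted p = 0.901). Adar, the RNA editing enzyme, was the 1 lower member in serum (-0.28 ± 0.10, adjusted p = 0.0397), a call lost under DESeq2 (adjusted p = 0.0501) and without any of 3 libraries (adjusted p up to 0.219).

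Of the 5 transcription factors, Irf1 and Irf3 were higher in serum. Irf1, an activator of MHC class I genes, had 14.3 and 15.4 CPM in WT and 25.9 and 28.9 CPM in DKO-labelled cells (0.88 ± 0.11, adjusted p = 2.03e-05), and it was also higher at 1 day (0.81 ± 0.11, adjusted p = 2.4e-05). Irf3 had 42.1 and 43.4 CPM against 55.4 and 61.5 CPM in serum (0.45 ± 0.09, adjusted p = 0.000764) and did not pass at 1 day (0.17 ± 0.09, adjusted p = 0.137). Stat2 and Irf9 did not pass at either time, with log2 fold changes of -0.28 to 0.19. Of the ADP-ribosylation and ubiquitin genes, Parp9 was higher at 1 day, with 10.1 and 11.1 CPM against 17.7 and 19.7 CPM (0.81 ± 0.16, adjusted p = 0.000931). Its partner Dtx3l, a ubiquitin ligase, passed in serum and at 1 day with 0.39 ± 0.14 each (adjusted p = 0.0432 and 0.0327), and both calls were lost without single libraries (adjusted p up to 0.157 and 0.195) and under DESeq2 (adjusted p = 0.0599 and 0.0537). Trim25, which ubiquitinates RIG-I, was lower at 1 day, with 161 and 156 CPM against 129 and 122 CPM (-0.33 ± 0.07, adjusted p = 0.00168), a call lost without the second DKO-labelled 1-day library (-0.25, adjusted p = 0.0606).

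Other lists moved with the same contrast. The 10 neuronal markers summed to 3700 to 3800 CPM in WT and 1350 to 1460 CPM in DKO-labelled cells in serum, with 8 of 10 lower. The 6 fibroblast markers summed to 2.17 to 2.52 CPM and 8.33 to 9.7 CPM, with 2 of 4 tested higher. The glial markers summed to 9.2 to 12.5 CPM and 4.56 to 5.07 CPM, and the endothelial ones to 20.4 to 23.5 CPM and 10.3 to 14.9 CPM. At 1 day the neuronal sums were 6110 to 6150 CPM in WT and 1290 to 1320 CPM in DKO-labelled cells, and the fibroblast sums 4.38 to 4.85 CPM and 11 to 12.8 CPM. Their part in the result was not tested. The macrophage list was at 0.204 to 1.08 CPM in these 8 libraries.

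Serum removal for 1 day raised a common core in both kinds of cell. In WT cells 17 of the 32 tested members were higher and 1 lower (median 0.64), against 20.4% of all genes higher and 20.3% lower. In DKO-labelled cells 16 were higher and 1 lower (median 0.50), against 19.9% and 20.4% of all genes. The interaction of genotype and withdrawal was called for 2 members, both lower (5.36% of all genes were higher and 4.37% lower).

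Stat2 had 64.9 and 51.4 CPM in WT cells in serum and 122 and 116 CPM at 1 day, and 56.2 and 45.1 CPM against 103 and 93 CPM in DKO-labelled cells. All 1-day libraries lay above all serum libraries, with log2 fold changes of 1.04 ± 0.12 (adjusted p = 8.38e-06) and 0.95 ± 0.12 (adjusted p = 2.12e-05). Irf1 rose by a like amount (0.88 ± 0.11 and 0.81 ± 0.11, adjusted p = 2.87e-05 and 3.94e-05). Ddx58 rose from the levels given above by 1.39 ± 0.18 in WT (adjusted p = 3.72e-05) and 1.09 ± 0.17 in DKO-labelled cells (adjusted p = 0.000155). Mavs rose by 0.44 ± 0.11 (adjusted p = 0.00541) and 0.57 ± 0.10 (adjusted p = 0.000507), but in WT not without WT 1-day replicate 1 (0.35, adjusted p = 0.0811). The call of Adar in WT (from 57.6 and 57.2 CPM to 66.6 and 73.6 CPM, 0.29 ± 0.10, adjusted p = 0.0349) and that of Eif2ak2 (from 29.7 and 30.1 CPM to 38.5 and 37.2 CPM, 0.34 ± 0.12, adjusted p = 0.0292) were lost without any 1 of the 4 libraries (adjusted p up to 0.251 and 0.164). In DKO-labelled cells Adar went from 51.5 and 42.7 CPM to 72.9 and 64.1 CPM (0.54 ± 0.10, adjusted p = 0.00079). Irf7, a factor that drives interferon gene induction, had 0 reads in DKO-labelled cells in serum and 20 at 1 day, at least 7.52-fold higher against a limit of 3 reads over the group, with a call (adjusted p = 0.0193) lost without any 1 of the 4 libraries (adjusted p up to 0.0919).

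Tapbp rose in both lines, to 83.1 and 74.7 CPM in WT (1.44 ± 0.08, adjusted p = 1.91e-08) and to 146 and 148 CPM in DKO-labelled cells (1.02 ± 0.08, adjusted p = 2.37e-07). Psmb8 did not pass in WT (0.48 ± 0.31, adjusted p = 0.24) and rose by 0.90 ± 0.24 in DKO-labelled cells (adjusted p = 0.00897). That call was lost with unstranded counts (adjusted p = 0.131) and without the second 1-day library (0.83, adjusted p = 0.0761), and the difference between the lines did not pass (0.42 ± 0.39, adjusted p = 0.581). Tap1 rose in WT to 5.14 and 5.15 CPM (0.88 ± 0.23, adjusted p = 0.00688), a call lost without WT serum replicate 2 (0.72, adjusted p = 0.0722). B2m showed no called rise in either line (0.19 ± 0.13 and -0.08 ± 0.12, adjusted p = 0.269 and 0.646). Of the ADP-ribosylation group 4 of 5 rose in each line. Dtx3l went from 7.89 and 8.27 CPM to 15.1 and 15 CPM in WT and from 11 and 10.3 CPM to 20.6 and 18.9 CPM in DKO-labelled cells, log2 fold changes of 0.90 ± 0.14 and 0.89 ± 0.14 (adjusted p = 0.000206 and 0.000164). Parp14, a mono-ADP-ribosyltransferase, had 0.686 and 1.15 CPM in WT in serum and 3.01 and 2.33 CPM at 1 day, a call (1.52 ± 0.53, adjusted p = 0.034) that was lost without any 1 of the 4 libraries (adjusted p up to 0.191).

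Effectors split. Ifi27 rose in WT (1.86 ± 0.15, adjusted p = 5.11e-07) and less in DKO-labelled cells (0.61 ± 0.13, adjusted p = 0.00213), and the difference between the 2 rises was -1.25 ± 0.20 (adjusted p = 0.00149). Isg15, a ubiquitin-like modifier, had 0.229 and 0.031 CPM in WT in serum and 1.02 and 0.741 CPM at 1 day. In DKO-labelled cells it had 0.098 and 0.0712 CPM against 1.15 and 1.9 CPM. Both rises passed (2.79 ± 0.88 and 4.08 ± 0.88, adjusted p = 0.0202 and 0.00204), but the one in WT was lost without either 1-day library or without WT serum replicate 2 (adjusted p up to 0.174). Cxcl10 went from 2 to 59 reads in WT, a ratio of 34.8 (95% counting interval 9.22 to 294), with a call lost without WT serum replicate 1 (adjusted p = 0.0782) or WT 1-day replicate 2 (adjusted p = 0.0643). Mx2, a GTPase of the myxovirus resistance family, rose in WT from 2.74 and 1.98 CPM to 4.3 and 6.37 CPM (1.19 ± 0.29, adjusted p = 0.00512), and its call was lost without the second serum library (0.95, adjusted p = 0.0717) or the second 1-day library (0.87, adjusted p = 0.0901). Isg20 rose in WT to 1.11 and 0.963 CPM (2.51 ± 0.90, adjusted p = 0.0391), and its call was lost without any of 3 libraries (adjusted p up to 0.189). Bst2 was the 1 lower member in DKO-labelled cells (-0.33 ± 0.12, adjusted p = 0.0461), a call lost without the first serum or the first 1-day library (adjusted p up to 0.34). Ifitm3 was the 1 member called lower in WT (-1.87 ± 0.53, adjusted p = 0.0116), a call lost with the 2 groups alone (adjusted p = 0.0522), without WT serum replicate 1 (-1.20, adjusted p = 0.126) or WT 1-day replicate 1 (-1.52, adjusted p = 0.0859), while in DKO-labelled cells its change was 0.04 ± 0.24 (adjusted p = 0.934). The difference between these did not pass (1.90 ± 0.59, adjusted p = 0.0568). Endothelial markers, nearly all Pecam1, summed to 20.4 to 23.5 CPM in WT in serum and 37.4 to 40.3 CPM at 1 day, and to 10.3 to 14.9 CPM and 22 to 22.3 CPM in DKO-labelled cells. In WT the neuronal sum went from 3700 to 3800 CPM to 6110 to 6150 CPM and the fibroblast sum from 2.17 to 2.52 CPM to 4.38 to 4.85 CPM. Most of that neuronal rise was Chgb, from 924 and 882 CPM to 2820 and 2950 CPM. In DKO-labelled cells the glial sum went from 4.56 to 5.07 CPM to 7.06 to 8.14 CPM. The part of these lists was not tested.

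**Figure D1:**
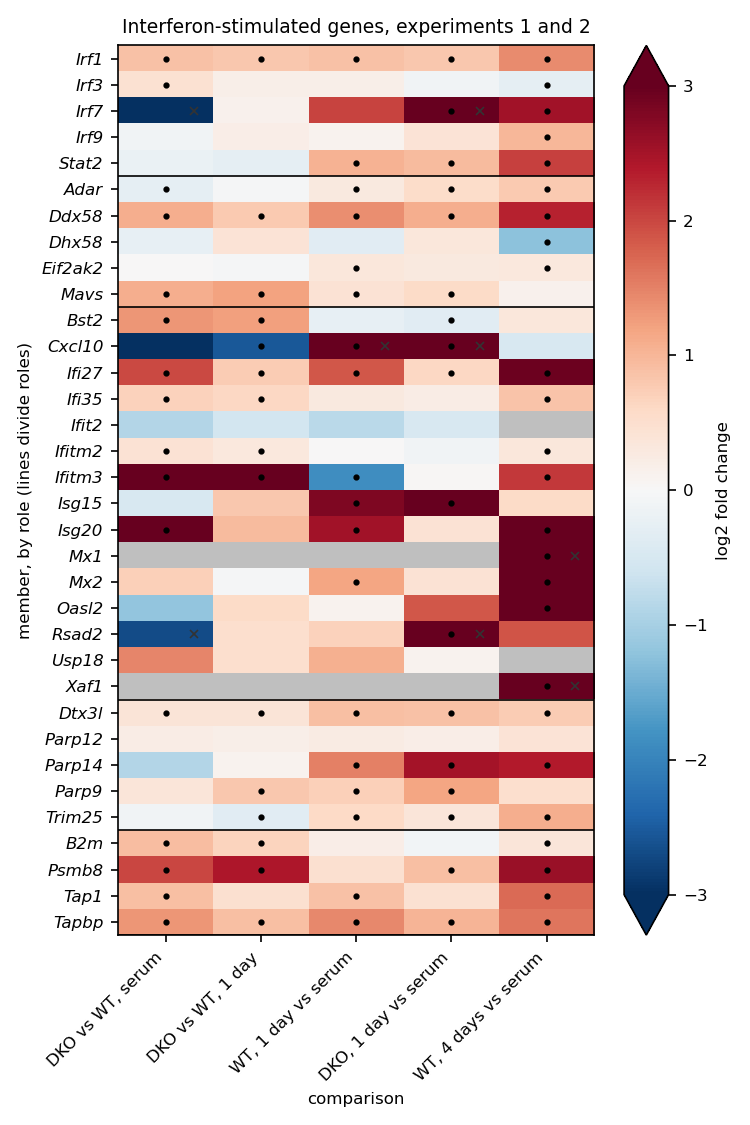
Heat map of log2 fold changes for the members tested (rows, divided by role) in the first and second experiments (columns), coloured from -3 to 3, with values beyond the scale shown at its end. A black dot marks a call at a false discovery rate of 0.05, grey a member that was not tested, and a small cross a pair of groups where 1 group had 0 to 3 reads and the fitted value is no bound. Cxcl10 in serum had 2 reads over the WT libraries and 0 over the DKO-labelled ones, so that cell shows no fold. The column for 4 days holds 23 higher and 2 lower calls.

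A longer withdrawal, 4 days, moved most members. The second experiment asked what it does in WT cells. Of 32 tested members 23 were higher, 2 lower and 7 not called, with a median log2 fold change of 1.26. Over all 13283 genes 36.2% were higher and 34.7% lower. Days and experiments differ, so the size was not compared with 1 day by a test.

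The factors of the response were mostly higher. Stat2 had 42.4, 43 and 44.8 CPM in serum and 200, 170 and 170 CPM at 4 days, a log2 fold change of 2.05 ± 0.09 (adjusted p = 1.92e-10). Irf1 had 17.5, 13.9 and 17.2 CPM against 44.2, 42.7 and 43.2 CPM (1.42 ± 0.13, adjusted p = 2.16e-07). Irf9, the DNA-binding partner of Stat2, had 7.27, 8.9 and 7.32 CPM against 14, 15.7 and 17 CPM (0.99 ± 0.18, adjusted p = 0.000203). For these 3 factors every library at 4 days was above every serum library. Irf7 had 0.503, 0.261 and 0 CPM against 1.92, 0.802 and 1.65 CPM (2.51 ± 0.83, adjusted p = 0.0154), and the call was lost without WT serum replicate 2 (2.51, adjusted p = 0.0569) or the third 4-day library (2.41, adjusted p = 0.0598). Irf3 was slightly lower, with 51.3, 52.9 and 57.1 CPM against 43.9, 46 and 45.2 CPM (-0.26 ± 0.09, adjusted p = 0.0255), a call that did not hold when low counts were kept (adjusted p = 0.0567) and without WT serum replicate 3 (-0.24, adjusted p = 0.0666) or 4-day replicate 3 (-0.26, adjusted p = 0.056).

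Antiviral effectors showed the widest changes. Mx2 had 1.23, 2.16 and 1.94 CPM in serum and 25.1, 28.2 and 26.4 CPM at 4 days (3.89 ± 0.21, adjusted p = 1.63e-09). Mx1, the antiviral GTPase that blocks orthomyxoviruses, had 0 reads in the 3 serum libraries and 3.16, 1.18 and 1.28 CPM at 4 days, 137 reads in all. It was at least 44.2-fold higher, and Xaf1, a pro-apoptotic factor, went from 0 to 62 reads and was at least 20-fold higher. Mx1 and Mx2 are similar genes whose shared reads were not counted. Oasl2, a 2'-5'-oligoadenylate synthetase-like protein, had 0.229, 0.484 and 0.043 CPM against 6.54, 3.78 and 5.69 CPM (4.34 ± 0.58, adjusted p = 1.34e-05). Isg20 had 0.366, 0.41 and 0.129 CPM against 5.98, 2.55 and 4.34 CPM (3.80 ± 0.55, adjusted p = 3.18e-05). Ifi27 rose from 6.81, 8.61 and 5.42 CPM to 52.5, 52.1 and 55 CPM (2.93 ± 0.16, adjusted p = 1.5e-09). Groups did not overlap for any of these 6 genes.

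Ifitm3 and Ifi35 rose too. Ifitm3 had 0.503, 0.484 and 0.603 CPM in serum and 2.18, 2.03 and 2.69 CPM at 4 days (2.11 ± 0.50, adjusted p = 0.00185). Ifi35 had 12.2, 14.7 and 16.3 CPM against 32.5, 22.2 and 23.2 CPM (0.85 ± 0.17, adjusted p = 0.000633). Ifitm2 rose by 0.33 ± 0.10 (adjusted p = 0.0117), a call lost without any of 3 libraries (adjusted p up to 0.0782). Isg15, Cxcl10, Rsad2 and Bst2 did not pass, with log2 fold changes of 0.58 ± 0.94, -0.49 ± 0.98, 1.89 ± 1.08 and 0.33 ± 0.15, so Isg15 and Cxcl10, called at 1 day, were not called here.

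Antigen-presentation genes and some of the sensors rose with them. Ddx58 went from 2.88, 3.2 and 3.57 CPM to 20.7, 13.4 and 13.4 CPM (2.30 ± 0.23, adjusted p = 9.22e-07). Adar went from 58.5, 48.7 and 60.3 CPM to 96.4, 95.3 and 98.4 CPM (0.79 ± 0.09, adjusted p = 4.5e-06). Dhx58 (LGP2), a regulator of RIG-I and MDA5, was lower, with 5.35, 2.83 and 5.08 CPM against 0.727, 2.45 and 2.46 CPM (-1.22 ± 0.46, adjusted p = 0.0289). Its call was lost without any of 3 libraries (adjusted p up to 0.0955): serum replicates 1 (-1.08) and 3 (-1.14) and 4-day replicate 1 (-0.84). Eif2ak2 had 32.3, 34.9 and 32.1 CPM against 42.4, 46.7 and 34.2 CPM (0.31 ± 0.13, adjusted p = 0.0391), a call lost without any of 5 libraries (adjusted p up to 0.199). Mavs did not pass (0.14 ± 0.21, adjusted p = 0.565). Of antigen presentation 4 of 4 tested members rose. Tapbp had 31.6, 27.1 and 31.3 CPM against 97, 83.9 and 91 CPM (1.60 ± 0.10, adjusted p = 7.27e-09). Psmb8 had 1.65, 0.559 and 1.42 CPM against 9.11, 5.9 and 6.5 CPM (2.58 ± 0.40, adjusted p = 5.08e-05), and Tap1 3.15, 2.91 and 2.5 CPM against 12.2, 8.07 and 7.37 CPM (1.69 ± 0.27, adjusted p = 8.03e-05). B2m rose less (0.37 ± 0.14, adjusted p = 0.0274), with a call lost without any of 4 libraries (adjusted p up to 0.147).

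Trim25 went from 109, 108 and 113 CPM to 248, 232 and 224 CPM (1.09 ± 0.07, adjusted p = 1.13e-08). Parp14 went from 0.823, 0.484 and 0.775 CPM to 4.92, 3.16 and 2.79 CPM (2.38 ± 0.47, adjusted p = 0.000451). Dtx3l rose by 0.76 ± 0.23 (adjusted p = 0.00803), and Parp9 and Parp12 did not pass. In these libraries the 6 fibroblast markers summed to 1.21 to 1.92 CPM in serum and 9.79 to 11.5 CPM at 4 days, with all 4 tested higher, the neuronal markers to 3910 to 4030 CPM and 8990 to 11300 CPM, and the macrophage markers to 0.96 to 1.75 CPM and 1.11 to 3.03 CPM. The rise of the neuronal sum was mostly Chgb, from 1180, 1150 and 1120 CPM to 8640, 6560 and 7080 CPM. Other neuronal markers moved both ways. Nefh fell from 508, 475 and 470 CPM to 128, 99.9 and 117 CPM, and Tubb3 rose from 523, 509 and 518 CPM to 623, 634 and 781 CPM. The part of these lists in the result was not tested.

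**Figure D2:**
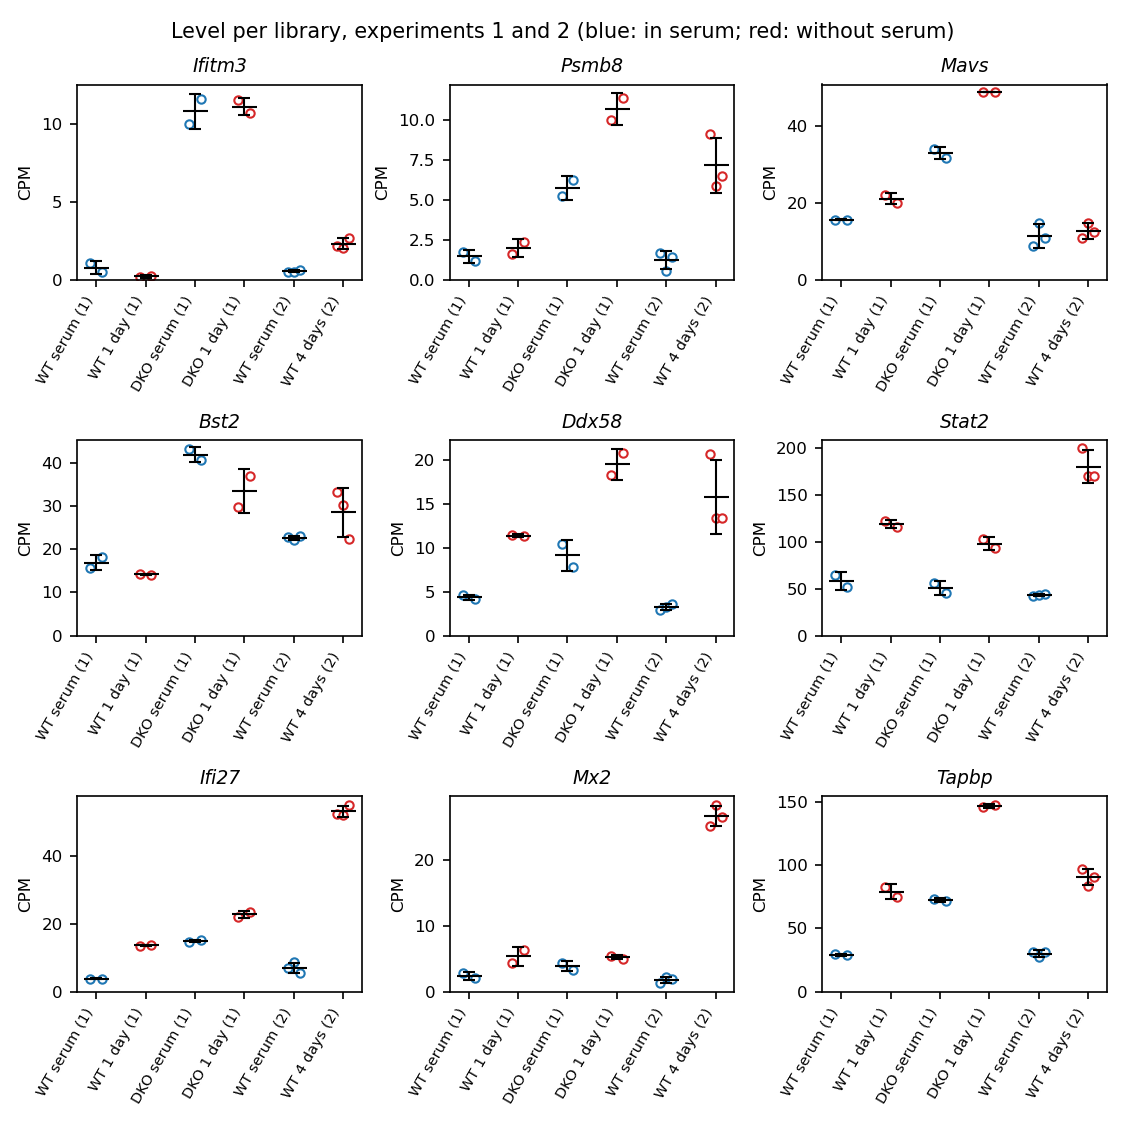
Levels of 9 members in the first 2 experiments, as CPM (vertical axes, from 0) for each library (points), with the mean (bar) and SD (error bar) of each group, in blue with serum and red without. Ifitm3 is at 0.133 to 1.07 CPM in WT cells of the first experiment and 10 to 11.6 CPM in DKO-labelled cells, and Stat2 is at 170 to 200 CPM in WT at 4 days.

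The other genes of the pathway give the setting. Of a list of 83 further genes 82 matched and 64 were measured. Of the interferon genes and lambda receptor listed, Ifnb1, Ifna2, Ifna4, Ifng, Ifnl2, Ifnl3, Ifne, Ifnk and Ifnlr1 had 0 reads in all 28 libraries, which allows up to 3 reads per library. The receptors Ifnar1, Ifnar2, Ifngr1, Ifngr2 and Il10rb were all expressed and all 5 were higher at 4 days, by log2 fold changes of 1.17, 0.67, 0.64, 0.33 and 1.00. Of 53 tested genes of that list 14 were higher (26.4%) and 8 lower (15.1%) in DKO-labelled cells in serum, against 19.2% and 21.5% of all genes. At 1 day 19 (35.8%) and 6 (11.3%) were, against 21.9% and 23%. Withdrawal for 1 day gave 21 higher (39.6%) and 4 lower (7.55%) in WT, against 20.4% and 20.3% of all genes, and 20 (37.7%) and 5 (9.43%) in DKO-labelled cells, against 19.9% and 20.4%. After 4 days 30 (56.6%) were higher and 13 (24.5%) lower, against 36.2% and 34.7%.

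By lowest adjusted p, Calr (calreticulin) fell at 1 day in DKO-labelled cells (-0.69 ± 0.05, adjusted p = 1.54e-07), and Samhd1, a dNTPase that restricts viruses, fell in WT (-0.93 ± 0.09, adjusted p = 1.33e-06). Both also fell in the other line. Calr went from 1140 and 1160 CPM to 730 and 731 CPM in WT. Samhd1 went from 147 and 160 CPM to 83.8 and 91.7 CPM in DKO-labelled cells. Tap2, the partner of Tap1, was higher in DKO-labelled cells in serum, with 4.5 and 5.86 CPM in WT against 17.6 and 20.1 CPM (1.85 ± 0.18, adjusted p = 1.2e-06). H2-K1, an MHC class I heavy chain, rose at 1 day in DKO-labelled cells, from 30.4 and 26.3 CPM to 66.9 and 65.3 CPM (1.22 ± 0.11, adjusted p = 1.49e-06). In WT it went from 44.9 and 35.6 CPM to 67 and 65.8 CPM. At 4 days in WT Helz2, a transcriptional coactivator, rose by 2.05 ± 0.12 (adjusted p = 2.46e-09), Tap2 by 2.76 ± 0.18 (adjusted p = 7.82e-09) and Lgals3bp, a secreted glycoprotein, by 2.80 ± 0.19 (adjusted p = 1.15e-08), while Samhd1 fell to 37.5, 31.1 and 26.3 CPM from 101, 107 and 101 CPM (-1.70 ± 0.12, adjusted p = 1.81e-08).

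Transfection was examined in DKO-labelled cells. Cells given pUC19 DNA were compared in serum with the cells titled DKO_2. Among the members Cxcl10 differed the most. Of 33 tested members 6 were higher, 2 lower and 25 not called, with a median log2 fold change of -0.01, and over all 12655 genes 10.7% were higher and 15.5% lower.

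Cxcl10 had 0.0527 and 0.0509 CPM in the DKO_2 cells, 1 read in each library, and 4.37 and 4.16 CPM after pUC19. From 2 reads against 133 the ratio was 82.8 (95% counting interval 22.5 to 690). The miR-138 libraries held 0.905 and 0.852 CPM and the miR-137 libraries 0.864 and 0.856 CPM in serum, between the 2 other groups. All 3 transfected groups were above the DKO_2 cells, and at 2 days without serum each of these levels had come down to 0.136 to 0.31 CPM. Isg15 had 0.158 and 0.153 CPM in DKO_2 cells against 1.53 and 2.04 CPM after pUC19 (3.43 ± 0.47, adjusted p = 2.77e-05). Isg20 had 0.263 and 0.458 CPM against 1.31 and 1.33 CPM (1.85 ± 0.40, adjusted p = 0.0023). Irf9 had 7.01 and 7.32 CPM against 10.8 and 10.3 CPM (0.56 ± 0.13, adjusted p = 0.00431).

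The 2 lower members were Ifitm2, with 94.3 and 95.2 CPM against 60.2 and 47 CPM (-0.81 ± 0.08, adjusted p = 4.62e-07), and Eif2ak2, with 35.8 and 34.8 CPM against 29.4 and 26.2 CPM (-0.34 ± 0.08, adjusted p = 0.00545). The call of Eif2ak2 was lost without the second pUC19 library (-0.26, adjusted p = 0.083). Mx2 (0.66 ± 0.24, adjusted p = 0.0471) and Adar (0.20 ± 0.06, adjusted p = 0.0225) were called higher, but not without any 1 of the 4 libraries (adjusted p up to 0.209 and 0.122). Ddx58 at 15.3 and 15 CPM against 14.7 and 14.4 CPM, Stat2 and the antigen-presentation genes did not pass. Of 53 other pathway genes 6 were higher (11.3%) and 3 lower (5.66%), against 10.7% and 15.5% of all genes.

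Against the same DKO_2 cells, the miR-138 mimic gave 13 members higher and 4 lower (29.5% and 30.6% of all genes), and the miR-137 mimic 5 higher and 9 lower (23.7% and 27.5%). These comparisons share the DKO_2 libraries with that of pUC19. Ifitm2 was lower in all 3, by -0.81 ± 0.08, -0.61 ± 0.08 and -0.46 ± 0.08 with pUC19, miR-138 and miR-137, and Isg20 was higher in all 3, by 1.85 ± 0.40, 2.35 ± 0.35 and 1.63 ± 0.42.

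The miR-138 mimic was next compared with pUC19 at the same times. The RNA sensor Ddx58, the kinase Eif2ak2, Stat2 and Ifi27 were higher with miR-138 at both times, and Usp18 and Irf7 were higher at 2 days. In serum 10 of 33 tested members were higher and 6 lower (median 0.08), against 28.7% and 27.3% of all genes. At 2 days 17 were higher and 4 lower (median 0.36), against 30.9% and 31.1%. Both times gave the same call upward for 9 members (18.8% of all genes) and downward for Irf3 and Trim25 (19.9%).

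Ddx58 had 14.7 and 14.4 CPM with pUC19 and 46.6 and 43.3 CPM with miR-138 in serum, and 39.2 and 41 CPM against 102 and 112 CPM at 2 days. The groups lay apart at both times, with log2 fold changes of 1.63 ± 0.09 (adjusted p = 4.11e-11) and 1.41 ± 0.08 (adjusted p = 2.19e-11). Eif2ak2 had 29.4 and 26.2 CPM against 47 and 46.7 CPM in serum (0.74 ± 0.08, adjusted p = 1.66e-07). At 2 days it had 42.1 and 47 CPM against 78.3 and 87.7 CPM (0.90 ± 0.08, adjusted p = 4.16e-09). The adaptor Mavs did not follow: it was level in serum (0.05 ± 0.07) and lower at 2 days, with 63.2 and 61.1 CPM against 39.9 and 40.6 CPM (-0.63 ± 0.07, adjusted p = 3.11e-07). Adar differed little (0.18 ± 0.06 at 2 days, adjusted p = 0.0106), a call lost when only the 2 groups were fitted (adjusted p = 0.0536), when low counts were kept (0.15, adjusted p = 0.114) and without the second library of miR-138 (0.12, adjusted p = 0.143) or of pUC19 (0.15, adjusted p = 0.0815).

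Among the factors, Stat2 had 49.1 and 47.7 CPM against 69.4 and 68.5 CPM in serum (0.51 ± 0.07, adjusted p = 5.12e-06) and 113 and 120 CPM against 161 and 183 CPM at 2 days (0.57 ± 0.06, adjusted p = 3.05e-07). Irf7 had 1 read with pUC19 in serum. At 2 days it had 0.531 and 0.952 CPM against 2.51 and 4.1 CPM (2.15 ± 0.37, adjusted p = 3.94e-05). Irf9 had 11.3 and 11.7 CPM against 16.8 and 19.1 CPM at 2 days (0.64 ± 0.12, adjusted p = 0.000118), after no call in serum (-0.27). Irf3, the constitutive partner of Irf7, moved opposite, with 47.6 and 46.6 CPM against 25.4 and 26.4 CPM at 2 days (-0.87 ± 0.08, adjusted p = 1.6e-08). Its smaller difference in serum (-0.19 ± 0.07, adjusted p = 0.0307) was lost without any of 3 libraries (adjusted p up to 0.216) and when low counts were kept (adjusted p = 0.0658).

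Usp18, the deubiquitinase that removes Isg15 and dampens interferon receptor signalling, had 0.826 and 0.544 CPM with pUC19 and 3.98 and 4.25 CPM with miR-138 at 2 days (2.55 ± 0.30, adjusted p = 3.97e-07), with 0.111 to 0.164 CPM in both groups in serum. Ifi27 had 22.2 and 24.2 CPM against 40.3 and 52.1 CPM at 2 days (0.99 ± 0.12, adjusted p = 5.17e-07). Bst2 had 28.1 and 28.1 CPM against 34.5 and 44.3 CPM (0.48 ± 0.10, adjusted p = 0.000216). Both miR-138 libraries lay above both pUC19 libraries for these 3 effectors. Ifitm3 was lower, with 21.1 and 23 CPM against 11.9 and 14.5 CPM (-0.74 ± 0.13, adjusted p = 5.24e-05), while Ifitm2 was higher, with 65.3 and 69.2 CPM against 84 and 88.9 CPM (0.36 ± 0.08, adjusted p = 0.000555). Oasl2 (1.05 ± 0.38, adjusted p = 0.0207) and Isg15 (0.89 ± 0.32, adjusted p = 0.0224) passed at 2 days, but not under DESeq2 (adjusted p = 0.0951 and 0.114) or without the second miR-138 library (0.68 and 0.62, adjusted p = 0.232 and 0.204). Ifi44, at too low a level to test, had 22 reads with miR-138 and 4 with pUC19 at 2 days. With miR-138 it had 0 reads in serum, so within that group it was at least 12.7-fold higher at 2 days. Time since transfection differed there as well.

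In serum the effectors with pUC19 as the higher group were Cxcl10 (-2.27 ± 0.24, adjusted p = 1.24e-07), Isg15 (-1.75 ± 0.34, adjusted p = 0.00023), Ifit2 (-2.16 ± 0.54, adjusted p = 0.00202) and Mx2 (-0.82 ± 0.23, adjusted p = 0.00494), the last lost without pUC19 serum replicate 1 (-0.74, adjusted p = 0.061). Ifit2, a tetratricopeptide protein that binds viral RNA, had 0.71 and 0.707 CPM with pUC19 and 0.118 and 0.185 CPM with miR-138.

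In the ADP-ribosylation group Parp14 was higher at both times, with 0.764 and 0.471 CPM against 1.77 and 1.89 CPM in serum (1.50 ± 0.31, adjusted p = 0.000351) and 4.49 and 5.03 CPM against 13.3 and 16.2 CPM at 2 days (1.63 ± 0.16, adjusted p = 3.46e-08). Parp9 had 18.4 and 23.3 CPM against 29.2 and 29.3 CPM at 2 days (0.49 ± 0.11, adjusted p = 0.000886). Trim25 was lower at both times, with 107 and 104 CPM against 80.2 and 83.9 CPM in serum (-0.37 ± 0.05, adjusted p = 7.42e-06) and 157 and 164 CPM against 112 and 117 CPM at 2 days (-0.48 ± 0.05, adjusted p = 1.29e-07). Antigen presentation moved little. Tapbp was higher in serum (0.47 ± 0.08, adjusted p = 2.66e-05) and at 2 days (0.27 ± 0.07, adjusted p = 0.00215), the latter not without pUC19 replicate 1 (0.17, adjusted p = 0.0588), and B2m was higher at 2 days by 0.27 ± 0.07 (adjusted p = 0.00148).

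At 2 days the 6 fibroblast markers summed to 38.8 to 39.1 CPM with miR-138 and 27.5 to 30 CPM with pUC19, with 1 of 6 higher and 1 lower, and Dcn made up most of the sum. The 6 glial markers summed to 17.4 to 18.7 CPM and 9.8 to 10.7 CPM, of which Aqp4 had 14.3 and 14.9 CPM and 6.79 and 6.12 CPM. Their part in the result was not tested. The macrophage list was at 0.236 to 0.68 CPM. Of 53 other pathway genes 20 were higher (37.7%) and 8 lower (15.1%) at 2 days, against 30.9% and 31.1% of all genes. Tmem173 (STING), the adaptor of cytosolic DNA sensing, was lower, with 43.9 and 47.9 CPM against 14.2 and 14.4 CPM (-1.68 ± 0.10, adjusted p = 5.09e-11).

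The miR-137 mimic gave another pattern. Against pUC19 in serum 3 members were higher and 6 lower (median -0.15), with 23.1% of all genes higher and 22.5% lower, and at 2 days 4 were higher and 7 lower (median -0.03), with 20.5% and 22.2%. B2m had 111 and 96.2 CPM with pUC19 and 46.4 and 48.7 CPM with miR-137 in serum, with no overlap (-1.13 ± 0.07, adjusted p = 1.53e-10). At 2 days both miR-137 libraries were above both pUC19 libraries, at 111 and 104 CPM against 93.8 and 101 CPM, and the difference did not pass (0.14). Among effectors in serum, Mx2 (-1.65 ± 0.29, adjusted p = 0.000109), Cxcl10 (-2.30 ± 0.27, adjusted p = 9.33e-07) and Isg15 (-1.95 ± 0.41, adjusted p = 0.000589) were lower with miR-137. Mx2 had 4.53 and 4.08 CPM against 0.997 and 1.78 CPM.

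Eif2ak2 and Dtx3l were the members called in the same direction at both times, both lower, against 12.1% of all genes, and no member was higher at both (11% of all genes). Eif2ak2 differed by -0.35 ± 0.09 in serum (adjusted p = 0.00343) and -0.31 ± 0.08 at 2 days (adjusted p = 0.00485), with calls lost without pUC19 serum replicate 1 (-0.26, adjusted p = 0.076) and pUC19 2-day replicate 2 (-0.22, adjusted p = 0.0671). Dtx3l differed by -0.39 ± 0.13 and -0.26 ± 0.10 (adjusted p = 0.0226 and 0.0489), and its calls were lost without single libraries (adjusted p up to 0.279 and 0.335). Ddx58 did not pass in serum, with 11.4 and 14.8 CPM with miR-137. At 2 days it was lower, with 31.7 and 34 CPM against 39.2 and 41 CPM (-0.29 ± 0.09, adjusted p = 0.0139), a call lost without miR-137 replicate 1 (-0.24, adjusted p = 0.118) or pUC19 replicate 2 (-0.26, adjusted p = 0.0659). Isg20 was higher at 2 days, with 0.767 and 1.36 CPM against 2.56 and 2.69 CPM (1.32 ± 0.30, adjusted p = 0.00157), and Parp14 with 7.45 and 8.21 CPM with miR-137 (0.72 ± 0.17, adjusted p = 0.00225). In serum the neuronal markers summed to 1910 to 2030 CPM with miR-137 and 1450 to 1490 CPM with pUC19, the fibroblast markers to 5.14 to 5.38 CPM and 8.16 to 8.57 CPM, and the glial markers to 1.86 to 2.57 CPM and 4.42 to 4.87 CPM. Hand2 made up most of these neuronal sums. At 2 days the fibroblast sums were 16.6 to 17.3 CPM and 27.5 to 30 CPM. The part of these lists in the result was not tested.

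**Figure D3:**
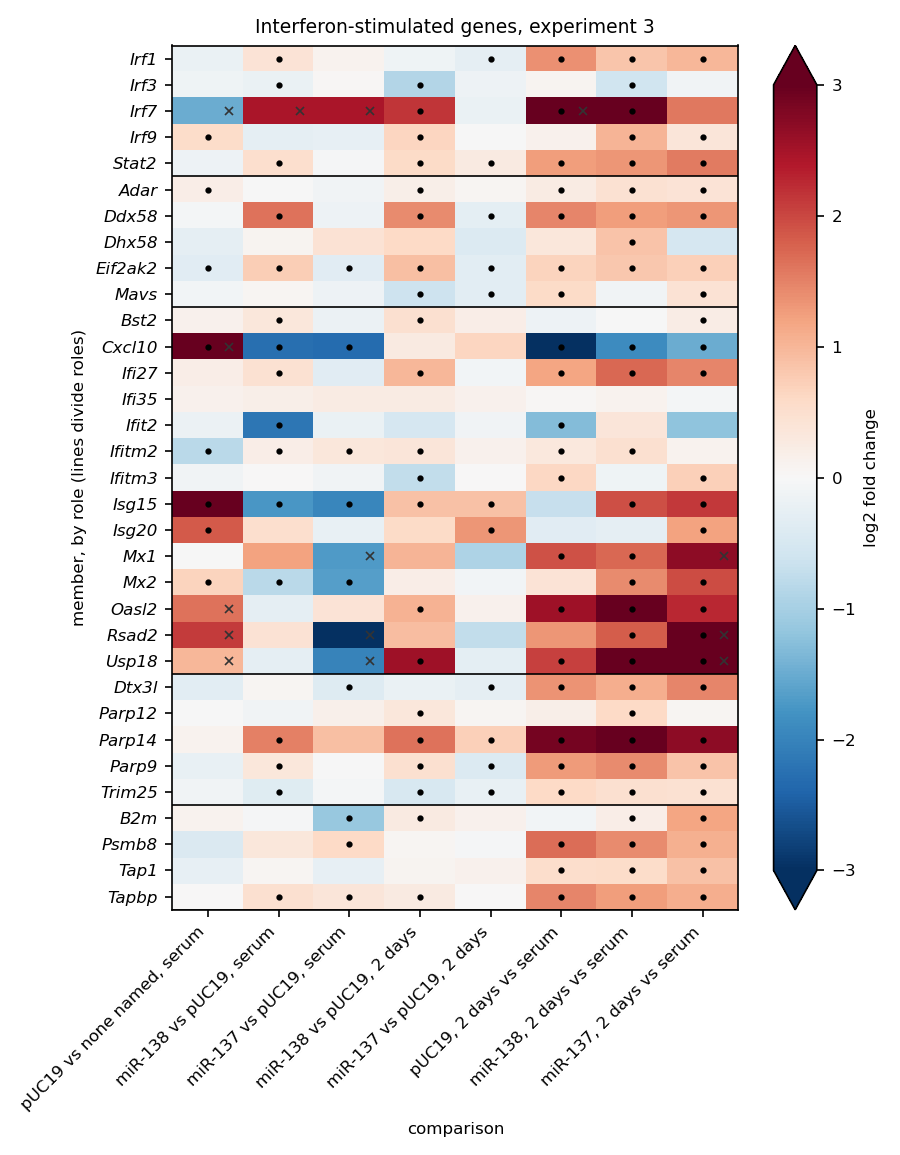
Heat map of log2 fold changes for the members tested (rows, divided by role) in 8 comparisons of the third experiment (columns), with the same colour scale, dots, crosses and grey as in the heat map of withdrawal. Ddx58 and Eif2ak2 are higher with miR-138 and lower or uncalled with miR-137 against pUC19.

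The mimics were also set directly against each other at the same dose and times, as 1 pair at each of 2 times. In serum 14 members were higher with miR-138 and 3 lower (32.7% and 30.7% of all genes), and at 2 days 16 and 5 (30.8% and 30.8%). Ddx58 differed by 1.78 ± 0.10 in serum (adjusted p = 5.84e-12) and 1.70 ± 0.08 at 2 days (adjusted p = 1.76e-12), and Eif2ak2, with 22.1 and 21.8 CPM under miR-137 in serum and 35.2 and 36.7 CPM at 2 days, by 1.10 ± 0.08 (adjusted p = 6.56e-10) and 1.20 ± 0.08 (adjusted p = 7.97e-11). B2m differed in serum (1.09 ± 0.07, adjusted p = 4.92e-11) and did not pass at 2 days (0.12). Usp18, with 0.543 and 0.581 CPM under miR-137 at 2 days, differed by 2.85 ± 0.33 (adjusted p = 2.79e-07), and Irf7, with 0.853 and 0.436 CPM, by 2.34 ± 0.39 (adjusted p = 3.51e-05). With miR-138, 8 members were higher at both times (21.6% of all genes) and Irf3 and Trim25 lower at both (21.5%).

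Serum withdrawal was also measured within each transfected group. The 2-day libraries were also later after transfection than the serum ones, so withdrawal and time since transfection cannot be told apart here. In each group more members rose than fell. With pUC19 20 of 33 were higher and 2 lower after 2 days (28.4% and 31.3% of all genes), with miR-138 25 and 2 (31.1% and 32.2%), and with miR-137 24 and 1 (33.2% and 32.6%). The medians were 0.60, 0.85 and 0.99. Stat2 rose by 1.26 ± 0.07, 1.32 ± 0.07 and 1.56 ± 0.07 with pUC19, miR-138 and miR-137. Ddx58 rose by 1.46 ± 0.10, 1.25 ± 0.08 and 1.33 ± 0.11, and the serum level with miR-138 was the highest of the 3. Parp14 rose by 2.87 ± 0.27, 3.00 ± 0.17 and 2.69 ± 0.23, and Tapbp by 1.46 ± 0.08, 1.26 ± 0.07 and 1.10 ± 0.07. Psmb8 rose by 1.68 ± 0.21, 1.41 ± 0.18 and 1.06 ± 0.20, Irf1 by 1.37 ± 0.09, 0.84 ± 0.09 and 0.99 ± 0.10, and Dtx3l by 1.34 ± 0.11, 1.08 ± 0.11 and 1.47 ± 0.12. Usp18 rose with miR-138 by 4.87 ± 0.36 (adjusted p = 5.01e-10). Its other rises were called too, by 2.06 ± 0.58 with pUC19 (not without the first 2-day library, 1.71, adjusted p = 0.0645), and with miR-137 from 1 to 15 reads, a ratio of 16.3 (95% counting interval 2.52 to 688). Cxcl10 fell in all 3 groups, by -4.44 ± 0.36, -1.89 ± 0.45 and -1.50 ± 0.48 (adjusted p = 2.69e-09, 0.00105 and 0.00982). The fall with miR-137 lost its call under DESeq2 (adjusted p = 0.061) and without the second 2-day library (-1.45, adjusted p = 0.0587). The 6 fibroblast markers summed to 8.16 to 8.57 CPM with pUC19 in serum and 27.5 to 30 CPM at 2 days, with 4 of 6 higher. Their sums went from 10.7 to 12.9 CPM to 38.8 to 39.1 CPM with miR-138 and from 5.14 to 5.38 CPM to 16.6 to 17.3 CPM with miR-137. The glial sum with miR-138 went from 4.29 to 5.48 CPM to 17.4 to 18.7 CPM. Endothelial sums were 12.3 to 15.8 CPM over the 3 groups in serum and 25.6 to 28.6 CPM at 2 days. The part of these lists was not tested.

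Interactions tell whether a mimic's difference from pUC19 changed between serum and 2 days without it. Time since transfection changed over the same span. For miR-138 7 members were higher and 4 lower (13.3% and 14.5% of all genes), and for miR-137 6 and 2 (11.9% and 11.4%). With miR-138 Irf9 (0.91 ± 0.17, adjusted p = 0.000643) and Isg15 (2.64 ± 0.47, adjusted p = 0.000356) gained relative to pUC19, and Mavs (-0.68 ± 0.10, adjusted p = 5.66e-05), Irf3 (-0.67 ± 0.11, adjusted p = 0.000127) and Ifitm3 (-0.74 ± 0.18, adjusted p = 0.00467) lost. The interaction of Ddx58 did not pass with miR-138 (-0.21) or miR-137 (-0.14). With miR-137 B2m gained (1.27 ± 0.10, adjusted p = 2.14e-08), from a deficit in serum to none at 2 days.

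**Figure D4:**
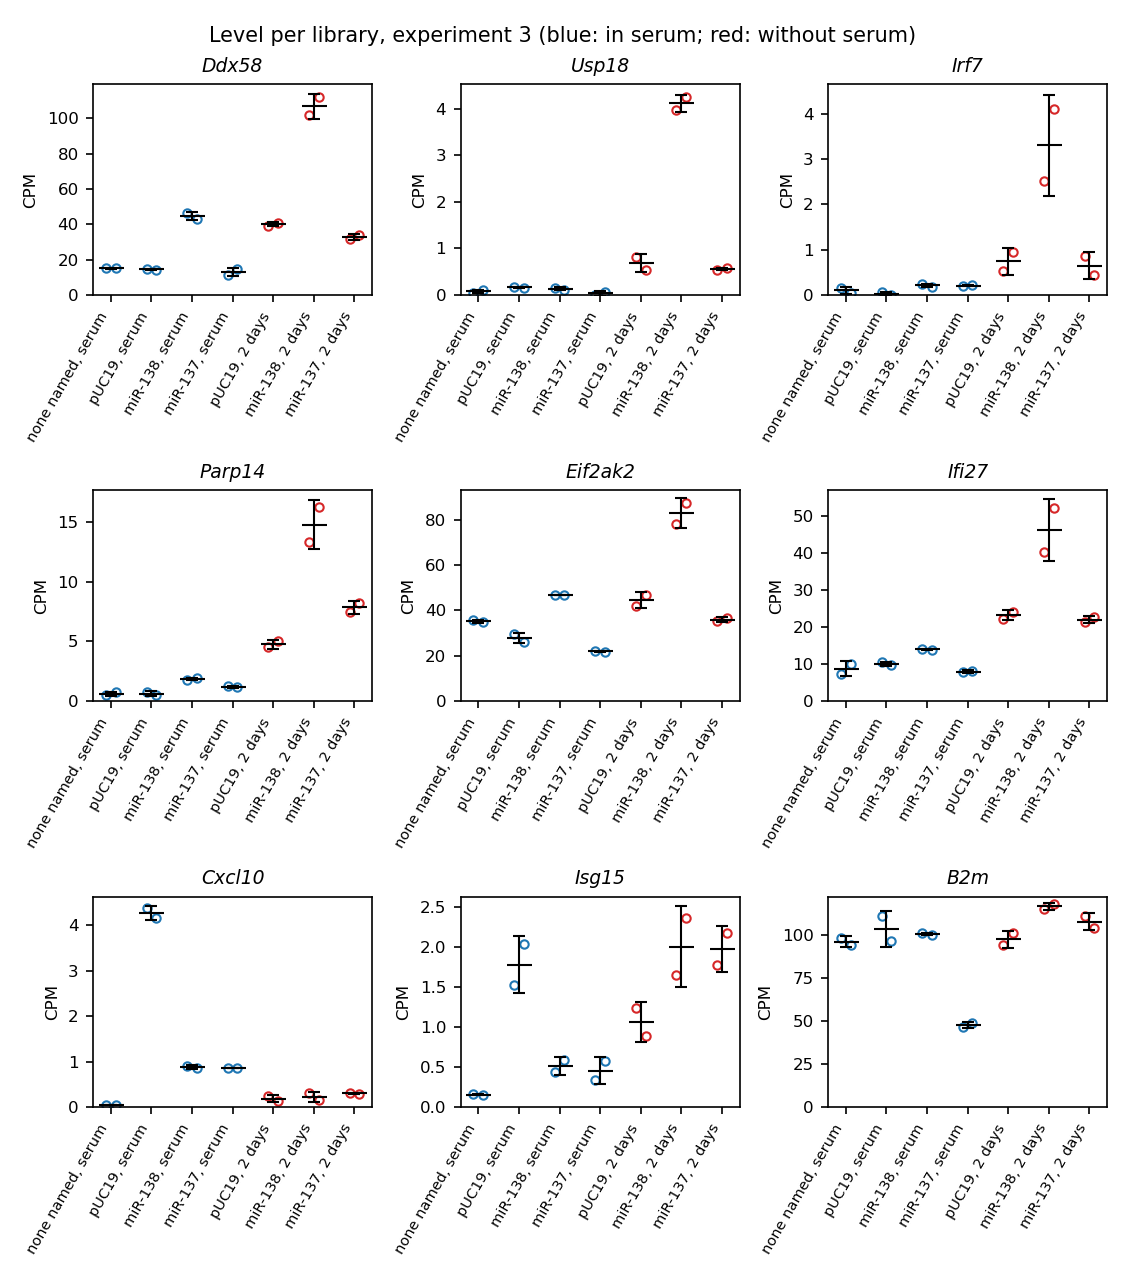
Levels of 9 members in the 7 groups of the third experiment, as CPM (vertical axes, from 0) for each library (points), with the mean (bar) and SD (error bar), in blue with serum and red without. Cxcl10 is above 4 CPM with pUC19 in serum alone, B2m is at 46.4 and 48.7 CPM with miR-137 in serum, and Ddx58 is above 100 CPM with miR-138 at 2 days.

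Over all 3 experiments, 6 withdrawal comparisons share no library: WT and DKO-labelled cells at 1 day, WT at 4 days, and the 3 transfected groups at 2 days. In those 3 groups time since transfection differs as well. Of 30 members tested in all 6, 9 were called higher in every one: Stat2, Irf1, Ddx58, Adar, Ifi27, Parp14, Dtx3l, Trim25 and Tapbp. Over 12136 genes tested in all 6, 8.82% were higher in every one. None of the 30 was lower in all 6 (11.5% of all genes). The calls of Adar and Parp14 in WT at 1 day are the least firm of these, since each was lost without any 1 of the 4 libraries (adjusted p up to 0.251 and 0.191). Of these 9, Stat2 and Ddx58 are among the genes with an interferon-stimulated response element core shown above. Irf1 and Adar hold only the gamma-activated sequence in their windows. Neither was found for Ifi27, Parp14, Dtx3l, Trim25 and Tapbp, and only 34 of the 43 members had a promoter window to search.

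Some members were too low to test. Ifih1, Ifit1, Ifitm1, Ifi44 and Nlrc5 failed the low-count filter in all 3 experiments, with Mx1 and Xaf1 failing in the first, Ifit2 and Usp18 in the second and Xaf1 in the third. Ifih1 (MDA5) reached 0.613 CPM, Ifit1 0.674 CPM and Nlrc5, the transactivator of MHC class I genes, 0.427 CPM in their highest libraries. Ifitm1 reached 0.222 CPM and Ifi44 1.01 CPM.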

How the data were processed

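PolyA RNA was sequenced in 28 libraries. Reads were read in pairs of 75 bp in the first and second experiments and singly at 50 bp in the third, per the labels' protocols. The authors deposited whole-number counts per gene in the layout of STAR's gene counts, and the submitters' processing notes name STAR, DESeq2 and mm9. Their versions and settings were not given in the sources used here. The fourth column, the reverse-strand counts, was used, and reads that map to several places are not in it. The 6 small RNA libraries were not used here.

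The 3 experiments were fitted separately in edgeR 4.0.16 (R 4.3.3): TMM scaling, a low-count filter (filterByExpr, minimum count 10, total 15), quasi-likelihood tests, two-sided, and Benjamini-Hochberg adjustment over all genes tested, with calls at 0.05. SE is the log2 fold change divided by the root of F. Every adjusted p is from this fit unless another is named. There were 20 comparisons, 3 of them interactions. The steps were tested on simulated data. Alternatives were DESeq2 1.42.0, RLE scaling, no filter, unstranded counts, the compared groups alone, a replicate block and leaving out each library. Members and lists were chosen with earlier results of these data known. Values by library are given for called members with a mean of at least 1 CPM, up to 6 per role and experiment, lowest adjusted p first. Of the gene IDs, 87.4% had a symbol. Same-numbered replicates did not deviate together, so they were not paired.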

Additional observations from a re-analysis of the deposited data

Results flagged for a closer look

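The response to withdrawal differed between groups, by an interaction term in edgeR's quasi-likelihood test, for the following members. For the mimics and pUC19, withdrawal and time since transfection cannot be told apart. Between DKO-labelled and WT cells at 1 day, the rise of Ifi27 was smaller by -1.25 and that of Tapbp by -0.42 on the log2 scale (adjusted p = 0.00149 and 0.028). The difference for Tapbp was lost without any of 5 of the 8 libraries (adjusted p up to 0.228).

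With the miR-138 mimic against pUC19, the 2-day response was lower for Mavs (-0.68), Irf3 (-0.67), Ifitm3 (-0.74) and Irf1 (-0.53). It was higher for Isg15 (2.64), Irf9 (0.91), B2m (0.31), Cxcl10 (2.55), Mx2 (1.01), Usp18 (2.81) and Ifi27 (0.53). The last 5 of these were each lost without single libraries, with adjusted p up to 0.164 for B2m, 0.434 for Cxcl10 over all alternatives, 0.0915 for Mx2, 0.154 for Usp18 and 0.195 for Ifi27. For Isg15, Cxcl10 and Mx2 the higher value goes with a higher serum level in pUC19 cells. Cxcl10 fell in each group, so its higher value is a smaller fall.

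With the miR-137 mimic against pUC19, the response was higher for B2m (1.27), Isg15 (2.83), Cxcl10 (2.95), Mx2 (1.55), Isg20 (1.54) and Stat2 (0.3), and lower for Tapbp (-0.35) and Irf1 (-0.38). B2m, Isg15 and Cxcl10 kept their calls without each library in turn. The others did not, with adjusted p up to 0.0511 for Mx2, 0.111 for Isg20, 0.108 for Stat2, 0.146 for Tapbp and 0.153 for Irf1. For B2m, Isg15, Cxcl10 and Mx2 the higher value again goes with a higher serum level in pUC19 cells, and for Cxcl10 it is a smaller fall. Both mimic tests share the pUC19 libraries.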

How the results depend on the processing

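Of 320 calls of members, none reversed in any alternative that gave a value. The call was kept for 316 with RLE scaling, 311 with no low-count filter and 302 with unstranded counts. It was kept for 281 of 318 with DESeq2 and 271 of 281 with the compared groups alone. That last setting left out 4 days and the genotype interaction, where it equals the reported fit. It also gave no value for calls of members that then failed the low-count filter. For DKO-labelled against WT cells in serum, for example, it tested 26 members in place of 32. Under DESeq2 the miR-137 interaction was called for 5 members in place of 8. Without single libraries, the calls numbered 11 to 13 for WT at 1 day (18 with all), 1 to 5 for the genotype interaction (2), 4 to 7 for the miR-137 interaction (8), 7 to 11 for the miR-138 interaction (11), 5 to 11 for miR-137 against pUC19 at 2 days (11), 10 to 14 for miR-138 against miR-137 in serum (17) and 5 to 6 for pUC19 against DKO_2 (8). Fewer libraries entered these fits, and the cause was not tested. With the replicate number as a block, 319 of 320 calls held. Cxcl10 in DKO-labelled against WT cells at 1 day did not (-2.58, adjusted p = 0.0595). The block gave 3 members for the genotype interaction and 9 for the miR-137 interaction. Same-numbered libraries had correlations of deviations from -0.187 to 0.096, so the pairing rests on the number alone. Groups of 2 or 3 libraries limit every test, and levels near 3 reads cannot show a difference.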
